A study of Mus with 21 samples.

Results

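The genes described here are 55 genes of the cell cycle and mitosis, measured by RNA-seq in whole brains of mouse embryos. They were chosen by name, as the rows of the deposited count table whose gene symbol is on the list, and each of the 55 symbols matched 1 of the 55335 rows. By the phase in which their products act, 22 were placed with S phase (including the G1/S regulators that precede it) and 33 with G2/M. The study asked whether a lower dose of *Wapl*, which encodes the factor that releases cohesin from chromosomes, offsets the loss of 1 copy of *Nipbl*, which encodes a factor that loads cohesin. Each library came from poly(A) RNA of the snap-frozen brain of 1 female embryo at E17.5 on a C57BL/6J background. The 5 WT libraries were *Wapl* +/+; *Nipbl* +/+. The 7 *Wapl* Δ/+ libraries (written delta/+ or +/delta in the labels) were *Nipbl* +/+, and the 3 *Nipbl*+/- libraries (*Nipbl* +/delta in the labels) were *Wapl* +/+. The 6 double heterozygotes carried 1 mutant copy of each gene. The *Wapl* Δ allele lacks the promoter and exons 1 and 2 after germline deletion with *E2a-Cre*, and the *Nipbl* mutant allele is a null allele made by *Stra8-iCre* in the male germline, so both losses were present in every cell type of the brain. A further *Nipbl*+/- library, which the authors excluded, was not analysed here, and the *Nipbl*+/- group rests on 3 embryos.

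A cell that divides copies its DNA in S phase and separates the copies in M phase. D-type and E-type cyclins with their kinases start the cycle, E2F factors turn on the replication genes, and the MCM helicase, loaded on DNA in G1, unwinds it in S phase. Cyclin B with *Cdk1* then drives mitosis, condensin compacts the chromosomes, and the anaphase-promoting complex releases separase to cut the cohesin that holds sister chromatids together. In the late embryonic brain these genes are expressed mainly in dividing progenitors, while the much larger number of neurons have left the cycle, so that in a whole-brain library their level follows both how many cells divide and how much of each transcript a dividing cell holds. In such bulk samples fewer cells and less RNA per cell cannot be told apart.

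Total counts on genes ran from 25682566 to 35818767 per library, and values below are counts normalized for depth by the TMM method. All 55 genes passed the filter on low counts (a sum of 10 or more normalized counts across the 21 libraries), as did 30552 genes in all. Mean normalized counts over the libraries ran from 155 for *Cdc6* to 7378 for *Ccnd2*. The labels were borne out by their genes: *Nipbl* stood at 54.3% of the WT mean in *Nipbl*+/- brains and 54.8% in double heterozygotes, and *Wapl* at 46.7% in *Wapl* Δ/+ brains and 49.4% in double heterozygotes. Summed normalized counts of 5 pituitary markers (*Gh*, *Prl*, *Pomc*, *Cga* and *Pou1f1*) reached 2748 in WT replicate 2, 1206 in double-heterozygote replicate 6 and 308 in double-heterozygote replicate 5, against 20.7 to 80.1 in the other libraries. The mitochondrial gene *mt-Nd3* had 52 to 106 counts in 9 libraries, which were WT replicates 4 and 5, replicates 3 to 7 of the *Wapl* Δ/+ group and the last 2 double heterozygotes, and 0 to 6 in the other 12, which included all *Nipbl*+/- brains. Among brains with a *Wapl* mutation, all those with low counts were written delta/+ in the labels and all those with high counts +/delta, so that a value within 1 set is also a value within 1 written order of the alleles, and the 2 cannot be told apart. All 12 neuronal markers examined were detected in every group.

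The cell cycle genes rose and fell as a block from one mutant brain to the next. Differences between brains of a mutant genotype were as large as those between genotypes, while WT brains lay closer together. For each library the log2 ratio of each gene to its WT mean was averaged over the genes of a phase. Among the 33 G2/M genes the 5 WT brains lay at 0.02, 0.03, -0.0015, -0.08 and 0.04 (replicates 1 to 5). The *Nipbl*+/- brains lay at 0.32, -0.12 and 0.26. *Wapl* Δ/+ brains lay at 0.33, 0.14, 0.00029, 0.22, 0.39, 0.04 and -0.01 (replicates 1 to 7), and double heterozygotes at 0.22, -0.0022, -0.09, 0.32, -0.0046 and 0.19 (replicates 1 to 6). Each mutant group thus held some brains well above the WT range and others within or below it. The *Nipbl*+/- mean was 0.15 ± 0.239 (SD, n = 3), the *Wapl* Δ/+ mean 0.16 ± 0.162 (SD, n = 7) and the double-heterozygote mean 0.11 ± 0.161 (SD, n = 6), beside an SD of 0.0451 (n = 5) in WT brains. Each of the 3 mutant means was smaller than the SD of its own brains. That SD describes the spread of single brains and is not a test of whether a mean differs from 0.

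The 22 S phase genes gave much the same picture with smaller differences. Their means per library ran from -0.06 to 0.05 in WT brains, from -0.10 to 0.23 in *Nipbl*+/- brains, from -0.05 to 0.27 in *Wapl* Δ/+ brains and from -0.05 to 0.22 in double heterozygotes. The means of the mutant groups, in that order, were 0.09 ± 0.171 (SD, n = 3), 0.11 ± 0.132 (SD, n = 7) and 0.08 ± 0.117 (SD, n = 6).

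**Figure D1:**
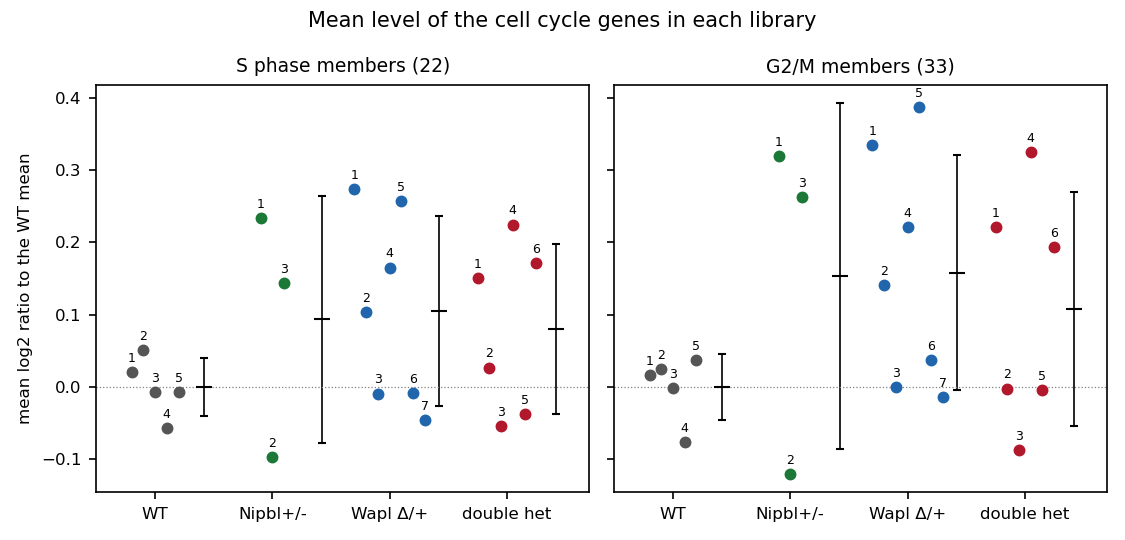
Mean log2 ratio to the WT mean (y axis) in each library, over the 22 S phase genes (left) and the 33 G2/M genes (right), by genotype (x axis). Points are libraries labelled by replicate number, and bars give the group mean ± SD. The 5 WT points lie between -0.08 and 0.04 on the right, while *Nipbl*+/- libraries run from -0.12 to 0.32 and *Wapl* Δ/+ libraries from -0.01 to 0.39.

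The block can be read gene by gene against the range of the 5 WT brains. In *Wapl* Δ/+ replicate 5, 54 of the 55 genes lay above the highest WT brain and none below the lowest. The counts above were 52 in *Wapl* Δ/+ replicate 1, 51 in double-heterozygote replicate 4, 50 in *Nipbl*+/- replicate 1, 47 in *Wapl* Δ/+ replicate 4, and 46 in both *Nipbl*+/- replicate 3 and double-heterozygote replicate 1. In those 7 brains, 26.9% to 36.2% of the 14542 genes that averaged 100 or more normalized counts lay above the WT range. At the other end, 28 of the 55 genes lay below the lowest WT brain in *Nipbl*+/- replicate 2 and 27 in double-heterozygote replicate 3, beside 24.4% and 24.9% of the 14542 genes. *Nipbl*+/- replicate 2 had the lowest value of all 21 brains for 19 of the 55 genes. *Wapl* Δ/+ replicate 1 had the highest for 17 and *Wapl* Δ/+ replicate 5 for 15.

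**Figure D2:**
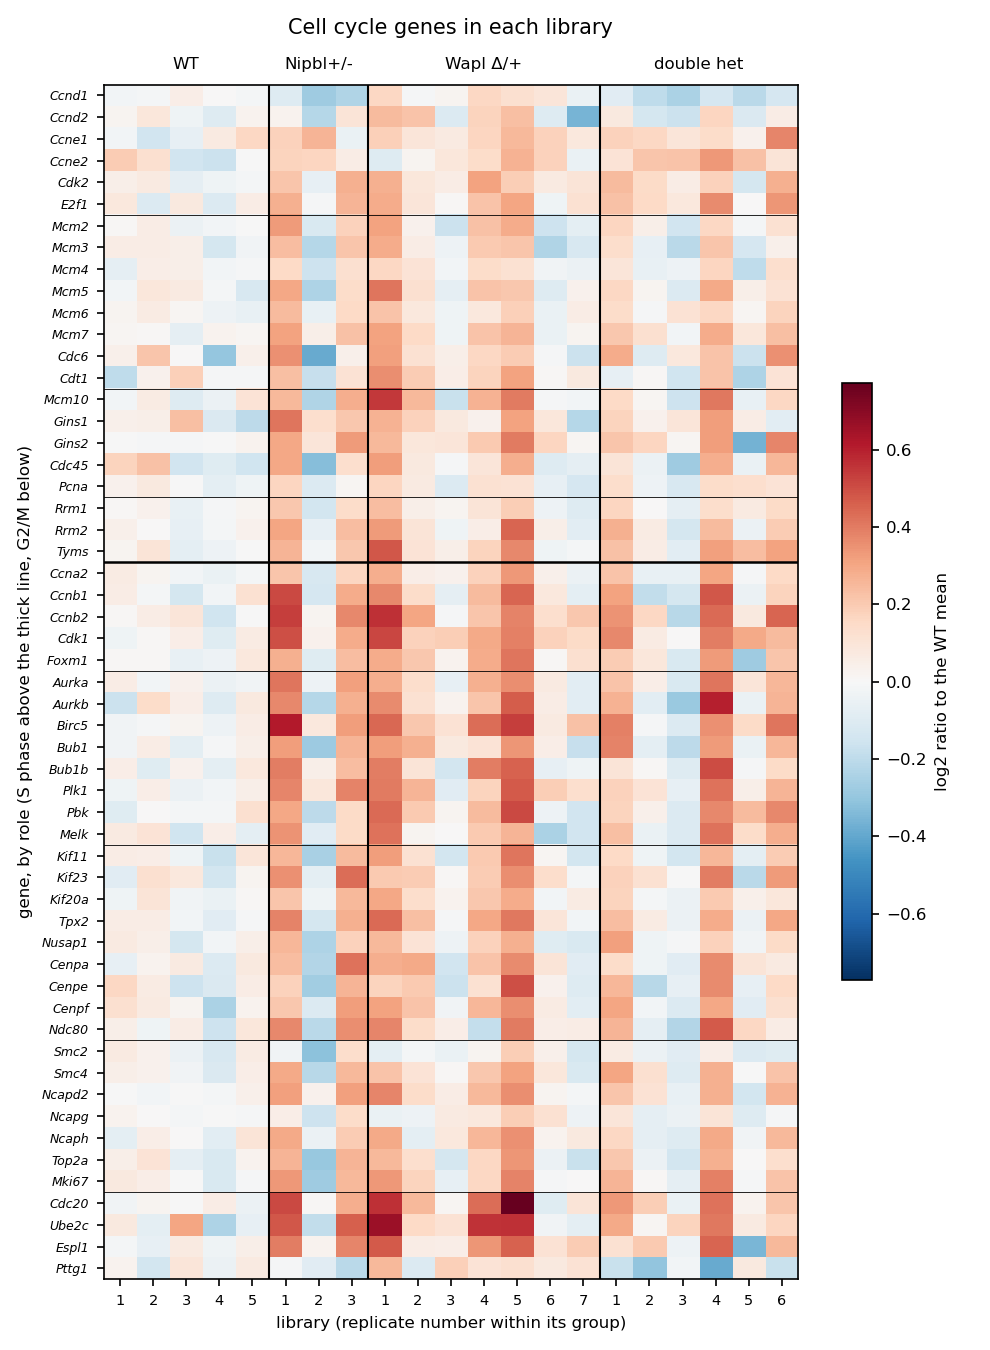
Log2 ratio to the WT mean (colour, red above and blue below) of the 55 genes (rows, by role) in the 21 libraries (columns, by genotype and replicate number). Whole columns are red or blue, such as *Wapl* Δ/+ replicate 5, where 54 of the 55 genes lay above the WT range, and *Nipbl*+/- replicate 2, where 28 lay below it.

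The spread between brains of a genotype was wider than in WT brains for most of the 55 genes. The SD of log2 values exceeded that of WT brains for 53 genes in the *Nipbl*+/- group, 50 in the *Wapl* Δ/+ group and 50 in the double heterozygotes, with median ratios of 3.20, 2.14 and 2.37. Most genes were wider too: of those 14542 genes, 61.2%, 73.3% and 74.5% exceeded WT, with median ratios of 1.23, 1.37 and 1.49. All 33 G2/M genes were wider in the *Nipbl*+/- and the *Wapl* Δ/+ group. After subtraction of the group means, the median correlation across the 21 libraries was 0.80 between pairs of G2/M genes, 0.71 between pairs of S phase genes and 0.75 between the phases, and 0.0068 between pairs of the 14542 genes. These correlations are descriptive and share the depth and the scaling of each library. Since the 55 genes moved together, counts of genes above or below 0 in the comparisons that follow are not 55 separate observations.

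In *Nipbl*+/- brains against WT, 11 of the 55 genes were called (edgeR's quasi-likelihood test, Benjamini-Hochberg adjusted P below 0.10 over all 30552 genes), 10 higher and 1 lower. *Gins2* and *Mcm7* of S phase and *Birc5*, *Ccnb2*, *Plk1*, *Cdk1*, *Cdc20*, *Espl1*, *Bub1b* and *Ncapd2* of G2/M rose by log2 fold changes of 0.19 to 0.35, and *Ccnd1* fell by 0.21 on the log2 scale. Over all genes 11.2% were called, 4.25% higher and 6.96% lower. Of the 14542 genes that averaged 100 or more normalized counts, as all 55 did, 2979 were called, 1169 higher and 1810 lower. Estimates lay above 0 for 51 of 55 genes, with a median log2 fold change of 0.11 over the S phase genes and 0.15 over the G2/M genes, beside -0.0086 over all genes. Without adjustment 20 genes had P below 0.05, 19 higher and 1 lower (20% of all genes, 8.47% higher and 11.6% lower). In 4 genes all *Nipbl*+/- libraries lay above all WT libraries (6.54% of all genes) and in 1 they all lay below (6.9% of all genes). Among the 14542 genes, 4775 had an unadjusted P below 0.05, and the groups did not overlap in 1645 higher and 1610 lower. The count rested on single embryos: it was 3 (*Ccnd1*, *Gins2* and *Ncapd2*) without *Nipbl*+/- replicate 1 and 41, of which 40 were higher, without *Nipbl*+/- replicate 2. The S phase and G2/M medians moved likewise, to 0.03 and 0.08 without replicate 1, 0.07 and 0.11 without replicate 3 and 0.21 and 0.29 without replicate 2. Within the libraries with low *mt-Nd3* counts, which hold all *Nipbl*+/- brains, it was 5 and the medians were 0.08 and 0.15.

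In *Wapl* Δ/+ brains against WT, 3 genes were called, all higher: *Cdk1*, *Birc5* and *Gins2*, with log2 fold changes of 0.28, 0.30 and 0.18. Over all genes 2.22% were called, 0.769% higher and 1.45% lower. Of the 14542 genes that averaged 100 or more normalized counts, 556 were called, 223 higher and 333 lower. An unadjusted P below 0.05 was found for 3496 of them, 1938 higher and 1558 lower. Estimates lay above 0 for 54 genes and just under 0 for *Smc2*, with medians of 0.10 for S phase and 0.16 for G2/M beside -0.0034 over all genes. An unadjusted P below 0.05 was reached by 25 genes, all higher, against 15.6% of all genes (7.52% higher and 8.12% lower). *Cdk1* and *Birc5* were higher in all 7 *Wapl* Δ/+ brains than in all 5 WT brains, a separation that 0.733% of all genes showed (0.471% in the other direction). The count was 0 without WT replicate 1, 2, 4 or 5, 1 without *Wapl* Δ/+ replicate 1, 4 or 5, 5 without replicate 2 or 7, 7 without replicate 6 and 8 without replicate 3. It was 10 with DESeq2, and the medians stayed above 0 within the low *mt-Nd3* libraries (0.17 and 0.24) and within the high ones (0.10 and 0.14), where no gene was called.

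In double heterozygotes against WT, 3 genes were called: *Cdk1* and *Mcm7* rose by 0.25 and 0.17, and *Ccnd1* fell by 0.15 on the log2 scale. Over all genes 3.28% were called, 0.812% higher and 2.46% lower. Of the 14542 genes that averaged 100 or more normalized counts, 876 were called, 206 higher and 670 lower. An unadjusted P below 0.05 was found for 2933 of them, 1329 higher and 1604 lower. The medians were 0.11 for S phase and 0.13 for G2/M beside 0.0007 over all genes, and 50 of the 55 estimates lay above 0. Without adjustment 20 genes had P below 0.05 (13.5% of all genes), of which 19 were higher and 1 was lower (5.88% and 7.62% of all genes). *Ccnd1* was lower in all 6 double heterozygotes than in all WT brains, as were 2.29% of all genes, and no gene of the 55 was higher in all of them (0.468%). Leaving out single brains moved the count to 0 (WT replicate 3 or 4), to 1 (WT replicate 1, 2 or 5 or double-heterozygote replicate 1, 4 or 6), to 11 (double-heterozygote replicate 3) and to 12 (double-heterozygote replicate 5). Without double-heterozygote replicate 4 the medians fell to 0.07 for both S phase and G2/M. It was 6 with DESeq2, 0 without both libraries with pituitary RNA (added after seeing the data), and 0 within each *mt-Nd3* set, where the medians were 0.07 and 0.13 in the low set and 0.12 and 0.13 in the high set. These 3 comparisons share the same 5 WT brains, so their estimates are set side by side and not read as repeats of one another.

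**Figure D3:**
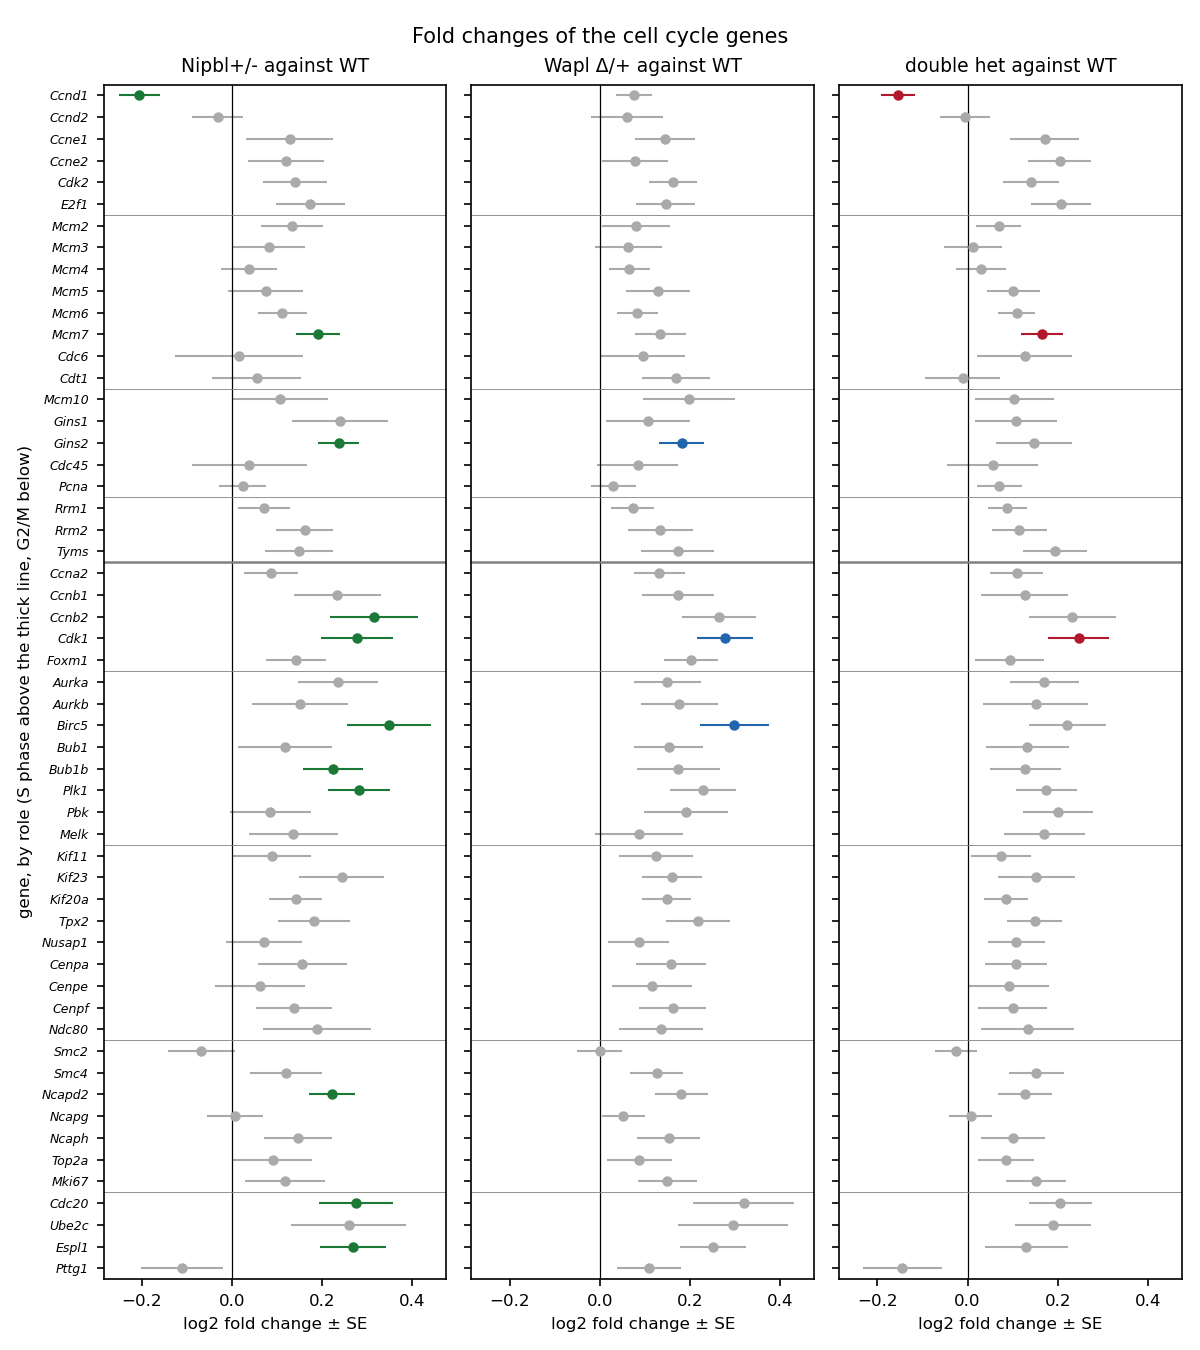
Log2 fold change ± SE (x axis) of each of the 55 genes (y axis, by role) in *Nipbl*+/-, *Wapl* Δ/+ and double heterozygous brains against the 5 WT brains. Coloured points passed an adjusted P of 0.10 and grey points did not. Most points lie to the right of 0 in all panels, at 51, 54 and 50 of 55 genes, and *Ccnd1* lies to the left for both *Nipbl*+/- and double heterozygous brains.

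Between double heterozygotes and either single heterozygote, 0 or 1 of the 55 genes were called, which does not show that the groups were alike. Against *Nipbl*+/- brains no cell cycle gene was called by edgeR or DESeq2, none reached an unadjusted P below 0.05 (4.12% of all genes did, 2.37% higher and 1.75% lower), and edgeR called 2 of all genes (0.00655%, with 0.00327% in each direction). None separated the groups without overlap (0.897% higher and 1.29% lower over all genes). The estimates ran from -0.15 to 0.10 with medians of -0.0026 for S phase and -0.05 for G2/M. These medians moved to -0.10 and -0.17 without *Nipbl*+/- replicate 2, and to 0.05 and 0.03 without *Nipbl*+/- replicate 1. Simulated 1.2-fold changes in random genes averaging 100 or more counts were called in 49.3% of them in groups of these sizes. Smaller changes were not simulated. The median SD of log2 values was 0.222 for the 55 genes and 0.0779 for the 14542 genes in *Nipbl*+/- brains. In double heterozygotes it was 0.164 and 0.0961, so that 49.3% is not a rate for the 55 genes. Against *Wapl* Δ/+ brains 1 gene was called, *Ccnd1*, by both tools (1.02% of all genes were called by edgeR, 0.206% higher and 0.812% lower), and its libraries did not overlap (0.717% of all genes were lower without overlap and 0.177% higher). With *Pttg1* and *Cdt1*, 3 genes had an unadjusted P below 0.05 (9.94% of all genes, 4.54% higher and 5.4% lower). The estimates of those 2 were -0.26 (edgeR adjusted P = 0.218) and -0.18 (edgeR adjusted P = 0.43). The medians against *Wapl* Δ/+ brains were -0.02 and -0.05. Without double-heterozygote replicate 5 the count was 2, and within the low or the high *mt-Nd3* libraries alone it was 0.

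The interaction asks whether the double heterozygotes differ from the sum of the single effects on the log2 scale, with a value below 0 meaning a level lower than that sum. No cell cycle gene was called in the interaction by edgeR, nor was any other gene (0%), and DESeq2 called 0 of the 55 among 793 genes in all. At an unadjusted P below 0.05 edgeR found 12 genes, all below 0 (13.8% of all genes, 5.73% above 0 and 8.08% below), and DESeq2 found 9. Of the 14542 genes that averaged 100 or more normalized counts, 3218 had an unadjusted edgeR P below 0.05, 1128 above 0 and 2090 below. The median estimate of those 14542 genes was -0.04. Of the 55 estimates, 54 lay below 0, with medians of -0.15 for S phase and -0.24 for G2/M beside -0.02 over all genes. The 3 furthest from 0 were *Birc5* at -0.46, *Cdc20* at -0.43 and *Espl1* at -0.43 (edgeR adjusted P = 0.204, 0.283 and 0.223), chosen after their values were seen. Both single heterozygote groups and the double heterozygotes lay on average above WT by similar amounts, and the sum of the single effects therefore lay above all 3. Without double-heterozygote replicate 6 the count was 1, and the G2/M median stayed below 0 in all 29 alternative fits, from -0.34 without *Nipbl*+/- replicate 2 to -0.16 without *Nipbl*+/- replicate 1. A simulated 1.2-fold interaction was called in 34.3% of random genes, which varied less between mutant brains than the 55, so that this is not a rate for the 55.

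Among the G1/S regulators, cyclin D1 stood apart. *Ccnd1* (chromosome 7, 144929931 to 144939831 on GRCm38.p6, within a span shared in part with *LTO1*) had normalized counts of 1564, 1567, 1645, 1587 and 1568 in WT brains and 1482, 1311 and 1352 in *Nipbl*+/- brains. Its counts were 1533 to 1770 (median 1689) in *Wapl* Δ/+ brains and 1339 to 1494 (median 1416) in double heterozygotes. Every brain that lacked 1 copy of *Nipbl* thus lay below every brain that carried both, whichever *Wapl* genotype it had. The log2 fold change was -0.21 (SE 0.0450, edgeR adjusted P = 0.00804) in *Nipbl*+/- brains, and the call was kept whichever of the 8 libraries was left out. In double heterozygotes it was -0.15 (SE 0.0379, edgeR adjusted P = 0.0415) against WT, a call lost without WT replicate 3 or 4 and without the libraries with pituitary RNA. That call was also lost with the replicate number as a block, within either *mt-Nd3* set and with all 4 groups in one fit (edgeR adjusted P = 0.11). Against *Wapl* Δ/+ brains the log2 fold change of double heterozygotes was -0.23 (SE 0.0433, edgeR adjusted P = 0.0126). This call was kept whichever of the 13 libraries was left out but lost within either *mt-Nd3* set. In *Wapl* Δ/+ brains the log2 fold change against WT was 0.08 (edgeR adjusted P = 0.371). Against *Nipbl*+/- brains the double heterozygotes differed by 0.04 (edgeR adjusted P = 0.983). Within genotypes *Ccnd1* still moved with the block, at a median correlation of 0.67 with the other 54 genes.

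The other G1/S regulators were not called in any comparison. Cyclin D2, a D-type cyclin of neural progenitors, had *Ccnd2* counts of 7411, 7770, 7145, 6833 and 7437 in WT brains, 7450, 6286 and 7848 in *Nipbl*+/- brains, 5702 to 8661 (median 8235) in *Wapl* Δ/+ brains and 6513 to 8216 (median 7184) in double heterozygotes. The 3 fold changes of *Ccnd2* against WT were -0.03, 0.06 and -0.01 in that order, with groups that overlapped. *E2f1*, the activator of S phase genes, gave 0.17, 0.15 and 0.21 (edgeR adjusted P = 0.205, 0.286 and 0.14). *E2f1* counts were 394, 346, 392, 345 and 388 in WT brains, 451, 370 and 447 in *Nipbl*+/- brains, 364 to 460 (median 403) in *Wapl* Δ/+ brains and 374 to 479 (median 425) in double heterozygotes. Cyclin E1 (*Ccne1*), the partner of *Cdk2*, gave 0.13, 0.15 and 0.17, and its counts of 193, 177, 188, 206 and 219 in WT brains overlapped with 222, 235 and 189 in *Nipbl*+/- brains. *Cdk2* and *Ccne2* lay between 0.08 and 0.20 in the 3 comparisons.

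Origin licensing genes encode the MCM helicase and the factors that load it. Of the 8, only *Mcm7* was called, in *Nipbl*+/- brains and in double heterozygotes. *Mcm7* (chromosome 5, 138164583 to 138172111) had counts of 2283, 2281, 2157, 2304 and 2291 in WT brains, 2805, 2336 and 2647 in *Nipbl*+/- brains, 2181 to 2806 (median 2513) in *Wapl* Δ/+ brains and 2231 to 2755 (median 2543) in double heterozygotes. All 3 *Nipbl*+/- brains lay above all WT brains, while the other mutant groups overlapped with WT. The log2 fold changes were 0.19 (SE 0.0483, edgeR adjusted P = 0.0195), 0.13 (edgeR adjusted P = 0.246) and 0.17 (SE 0.0464, edgeR adjusted P = 0.0806) in *Nipbl*+/-, *Wapl* Δ/+ and double heterozygous brains. The call in double heterozygotes was kept only without double-heterozygote replicate 3 or 5, and that in *Nipbl*+/- brains was lost without *Nipbl*+/- replicate 1. The span of *Mcm7* holds Mir25, Mir93 and Mir106b and meets *Ap4m1*, and since the strand setting of the counts is not given in the sources used here, shared reads cannot be told apart.

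The remaining licensing genes had estimates between -0.01 and 0.17, both of them *Cdt1*, and none was called. *Mcm2* counts were 984, 1017, 947, 965 and 978 in WT brains, 1231, 901 and 1105 in *Nipbl*+/- brains, 873 to 1212 (median 1001) in *Wapl* Δ/+ brains and 882 to 1098 (median 1037) in double heterozygotes, with fold changes of 0.13, 0.08 and 0.07. *Mcm6*, another helicase subunit, had 1609, 1660, 1608, 1547 and 1524 in WT brains and 1885, 1526 and 1769 in *Nipbl*+/- brains. *Mcm6* ranged over 1535 to 1852 (median 1683) in *Wapl* Δ/+ brains and 1579 to 1789 (median 1733) in double heterozygotes, with fold changes of 0.11, 0.08 and 0.11. In both genes the second *Nipbl*+/- library was the lowest of its group, and it fell under the WT range for *Mcm2* and at its lower edge for *Mcm6*. *Cdc6*, a loading factor, had 151, 170, 147, 119 and 151 in WT brains and 188, 112 and 151 in *Nipbl*+/- brains, and its estimates of 0.02, 0.10 and 0.13 came with an SE of 0.142 in the *Nipbl*+/- comparison, the widest of the 55 genes there.

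At the replication fork, *Gins2*, a subunit of the GINS complex that activates the helicase, had the smallest adjusted P of the 55 genes in *Nipbl*+/- brains. *Gins2* (chromosome 8, 120581266 to 120589075, overlapping *Gse1*) had counts of 2069, 2062, 2062, 2076 and 2114 in WT brains, a narrow range, and 2554, 2212 and 2611 in *Nipbl*+/- brains. Its counts were 2098 to 2740 (median 2328) in *Wapl* Δ/+ brains and 1609 to 2702 (median 2368) in double heterozygotes. All *Nipbl*+/- brains lay above all WT brains, and the lowest double heterozygote, replicate 5, lay below every other brain of the series. The log2 fold changes were 0.24 (SE 0.0464, edgeR adjusted P = 0.00367) in *Nipbl*+/- brains, 0.18 (SE 0.0499, edgeR adjusted P = 0.0897) in *Wapl* Δ/+ brains and 0.15 (edgeR adjusted P = 0.482) in double heterozygotes. The first call was kept whichever of the 8 libraries was left out but lost with all 4 groups in one fit (edgeR adjusted P = 0.158), and the second was lost without any 1 of the WT brains or without *Wapl* Δ/+ replicate 1, 4 or 5. *Gins1*, a second subunit, gave 0.24 (edgeR adjusted P = 0.21) in *Nipbl*+/- brains and was not called.

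*Pcna*, the sliding clamp of the fork, was not called. Its counts were 1885, 1942, 1837, 1746 and 1799 in WT brains, 2067, 1714 and 1862 in *Nipbl*+/- brains, 1684 to 2063 (median 1932) in *Wapl* Δ/+ brains and 1687 to 2027 (median 1996) in double heterozygotes. The fold changes were 0.02, 0.03 and 0.07. The 3 genes of nucleotide supply had estimates between 0.07 and 0.19 and none was called. *Rrm2*, the regulated subunit of ribonucleotide reductase, had 985, 963, 919, 947 and 982 in WT brains, 1186, 917 and 1132 in *Nipbl*+/- brains, 908 to 1309 (median 992) in *Wapl* Δ/+ brains and 872 to 1160 (median 1050) in double heterozygotes. Its fold changes were 0.16 (edgeR adjusted P = 0.142), 0.13 (edgeR adjusted P = 0.379) and 0.12 (edgeR adjusted P = 0.439).

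*Cdk1*, the kinase that drives entry into mitosis, was the only one of the 55 genes called in all 3 comparisons against WT. *Cdk1* (chromosome 10, 69335146 to 69352912) had counts of 452, 465, 478, 434 and 483 in WT brains, 652, 473 and 564 in *Nipbl*+/- brains, 513 to 660 (median 527) in *Wapl* Δ/+ brains and 464 to 609 (median 557) in double heterozygotes. All *Wapl* Δ/+ brains lay above all WT brains, while the second *Nipbl*+/- brain and 2 double heterozygotes lay within the WT range. The log2 fold changes were 0.28 (SE 0.0791, edgeR adjusted P = 0.0371), 0.28 (SE 0.0625, edgeR adjusted P = 0.0463) and 0.25 (SE 0.0683, edgeR adjusted P = 0.0747) in *Nipbl*+/-, *Wapl* Δ/+ and double heterozygous brains. The call in *Nipbl*+/- brains was lost without *Nipbl*+/- replicate 1, and that in *Wapl* Δ/+ brains without WT replicate 1, 2, 4 or 5. The call in double heterozygotes was lost without any 1 of the WT brains or double-heterozygote replicate 1, 4 or 6. The *Nipbl*+/- call was also lost with the replicate number as a block, with a term for the *mt-Nd3* set and within the low set. That in *Wapl* Δ/+ brains was also lost without the libraries with pituitary RNA, with all 4 groups in one fit and within either *mt-Nd3* set. The double-heterozygote call was lost in the same alternatives, with the replicate block and at a threshold of 0.05. The interaction estimate was -0.35 (edgeR adjusted P = 0.219).

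The B-type cyclins that partner *Cdk1* had estimates above 0 in each group. *Ccnb2* (chromosome 9, 70407689 to 70421554) had 256, 266, 272, 229 and 254 in WT brains, 370, 259 and 330 in *Nipbl*+/- brains, 253 to 377 (median 296) in *Wapl* Δ/+ brains and 219 to 348 (median 305) in double heterozygotes, with overlap in each comparison. Its fold changes were 0.31 (SE 0.0978, edgeR adjusted P = 0.0567), 0.27 (edgeR adjusted P = 0.125) and 0.23 (edgeR adjusted P = 0.282), and the call in *Nipbl*+/- brains was lost without WT replicate 4 or 5 or *Nipbl*+/- replicate 1 or 3. *Ccnb1* was not called, at 0.23 (edgeR adjusted P = 0.17), 0.17 (edgeR adjusted P = 0.298) and 0.13 (edgeR adjusted P = 0.624). *Ccnb1* counts were 525, 498, 458, 495 and 545 in WT brains and 716, 460 and 613 in *Nipbl*+/- brains, so that its first *Nipbl*+/- brain had the highest count of the 21 and its second lay at the low end of the WT range. *Ccna2* (cyclin A2) and *Foxm1*, the activator of G2/M genes, lay between 0.09 and 0.20, and neither was called.

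**Figure D4:**
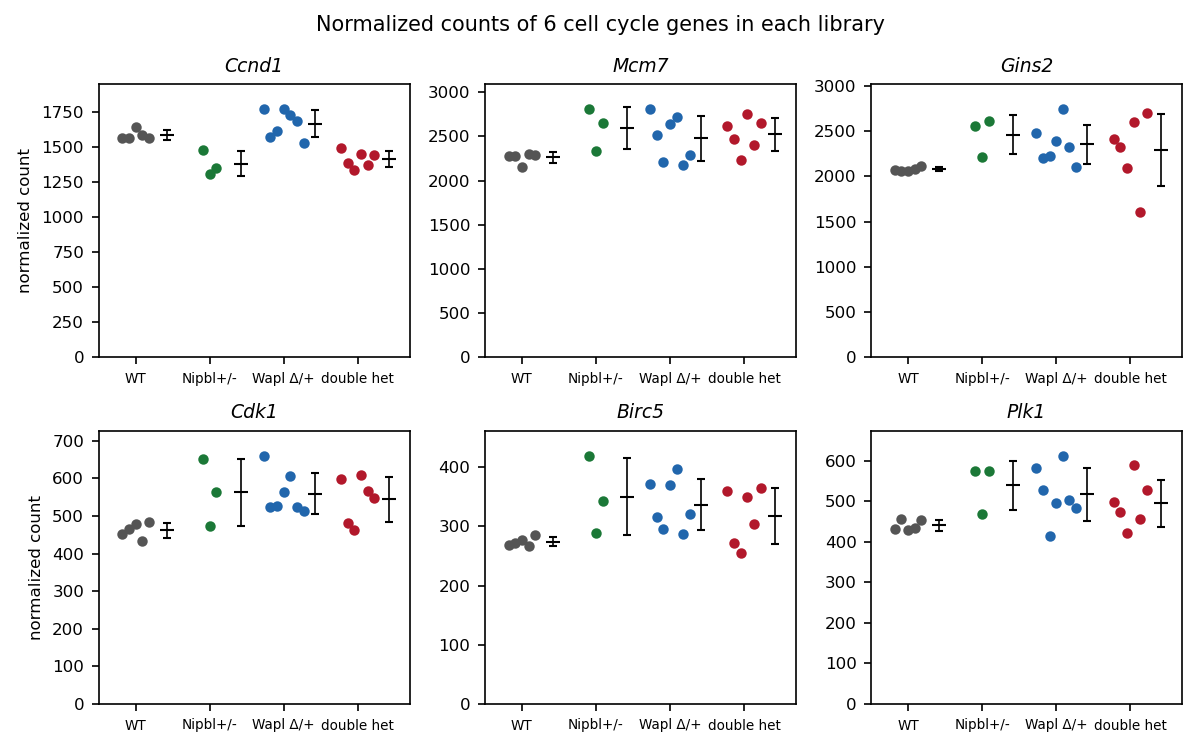
Normalized counts (y axis, from 0) of *Ccnd1*, *Mcm7*, *Gins2*, *Cdk1*, *Birc5* and *Plk1* in each library by genotype (x axis). Points are libraries and bars the group mean ± SD. *Ccnd1* lies at 1311 to 1482 in *Nipbl*+/- and 1339 to 1494 in double heterozygous brains, below the WT range of 1564 to 1645, while the other genes have their highest values in mutant brains.

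Among the mitotic kinases and checkpoint genes, *Birc5*, which encodes survivin of the chromosomal passenger complex, had the largest fold change of the 55 genes in *Nipbl*+/- brains. *Birc5* (chromosome 11, 117849237 to 117855743) had counts of 269, 272, 278, 267 and 285 in WT brains, 420, 290 and 342 in *Nipbl*+/- brains, 287 to 397 (median 321) in *Wapl* Δ/+ brains and 255 to 365 (median 327) in double heterozygotes. Both single heterozygote groups lay wholly above WT, and the double heterozygotes overlapped with WT. The log2 fold changes were 0.35 (SE 0.0932, edgeR adjusted P = 0.0268), 0.30 (SE 0.0771, edgeR adjusted P = 0.0698) and 0.22 (edgeR adjusted P = 0.239). The call in *Nipbl*+/- brains was lost without *Nipbl*+/- replicate 1, and that in *Wapl* Δ/+ brains without WT replicate 1, 2, 4 or 5 or *Wapl* Δ/+ replicate 1, 4 or 5.

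*Plk1*, a kinase of spindle assembly and mitotic exit, was called in *Nipbl*+/- brains only, which does not show a difference from the other groups. *Plk1* (chromosome 7, 122159435 to 122169884) had 431, 457, 428, 435 and 455 in WT brains, 574, 469 and 575 in *Nipbl*+/- brains, 414 to 612 (median 503) in *Wapl* Δ/+ brains and 423 to 589 (median 487) in double heterozygotes. All *Nipbl*+/- brains lay above all WT brains. Its fold changes were 0.28 (SE 0.0683, edgeR adjusted P = 0.0151), 0.23 (edgeR adjusted P = 0.134) and 0.17 (edgeR adjusted P = 0.241). *Bub1b* (chromosome 2, 118598202 to 118641592), which encodes the checkpoint protein BubR1, had 638, 577, 631, 585 and 652 in WT brains, 810, 636 and 726 in *Nipbl*+/- brains, 558 to 844 (median 659) in *Wapl* Δ/+ brains and 575 to 873 (median 641) in double heterozygotes. The second *Nipbl*+/- brain lay within the WT range of *Bub1b*, and the fold changes were 0.22 (SE 0.0672, edgeR adjusted P = 0.0479), 0.17 (edgeR adjusted P = 0.368) and 0.13 (edgeR adjusted P = 0.521). The *Nipbl*+/- call was lost for both genes without *Nipbl*+/- replicate 1, and for *Bub1b* also without WT replicate 2 or 4. *Aurka*, the kinase of the spindle poles, had 286, 271, 282, 267 and 270 in WT brains and 367, 267 and 343 in *Nipbl*+/- brains. It was not called, at 0.24 (edgeR adjusted P = 0.123), 0.15 (edgeR adjusted P = 0.341) and 0.17 (edgeR adjusted P = 0.33). The other 4 genes of this role, *Aurkb*, *Bub1*, *Pbk* and *Melk*, lay between 0.09 and 0.20 in the 3 comparisons, none called.

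None of the 9 spindle and kinetochore genes was called by edgeR in any comparison. An unadjusted P below 0.05 was reached by 3, 4 and 1 of them in *Nipbl*+/-, *Wapl* Δ/+ and double heterozygous brains (20%, 15.6% and 13.5% of all genes). Of the 14542 genes that averaged 100 or more normalized counts, as all 9 did, 4775, 3496 and 2933 reached it. All 9 estimates lay above 0 in each comparison against WT. They ran from 0.06 (*Cenpe*, a kinetochore motor) to 0.24 (*Kif23*, a motor of the central spindle) in *Nipbl*+/- brains, from 0.09 (*Nusap1*) to 0.22 (*Tpx2*) in *Wapl* Δ/+ brains, and from 0.07 (*Kif11*) to 0.15 (*Kif23*) in double heterozygotes. The lowest edgeR adjusted P values were 0.14 for *Kif23* in *Nipbl*+/- brains and 0.143 for *Tpx2* in *Wapl* Δ/+ brains.

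Condensin compacts chromosomes with a pair of SMC proteins and several further subunits, and 1 of its 5 genes listed here was called. *Ncapd2* (chromosome 6, 125168007 to 125192100, holding *Scarna10*) had 3565, 3532, 3572, 3547 and 3673 in WT brains, 4454, 3664 and 4462 in *Nipbl*+/- brains, 3536 to 4648 (median 3952) in *Wapl* Δ/+ brains and 3240 to 4321 (median 4004) in double heterozygotes. The second *Nipbl*+/- brain fell within the WT range and the other pair well above it. Its fold changes were 0.22 (SE 0.0509, edgeR adjusted P = 0.0107), 0.18 (edgeR adjusted P = 0.141) and 0.13 (edgeR adjusted P = 0.358), and the call in *Nipbl*+/- brains was kept whichever library was left out but lost with all 4 groups in one fit (edgeR adjusted P = 0.133). *Smc2*, which encodes one of the SMC proteins, had 887, 864, 820, 775 and 881 in WT brains, 827, 678 and 928 in *Nipbl*+/- brains, 769 to 964 (median 836) in *Wapl* Δ/+ brains and 786 to 882 (median 806) in double heterozygotes. The *Smc2* estimates were -0.07, -1.46e-05 and -0.03, at or below 0 throughout, and those of *Ncapg* were 0.01, 0.05 and 0.01. *Smc4* and *Ncaph* lay between 0.10 and 0.15, and none of these 4 genes was called.

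*Mki67* and *Top2a*, the usual markers of proliferating cells, were not called in any comparison. *Mki67* had 1973, 1943, 1869, 1725 and 1856 in WT brains, 2362, 1546 and 2225 in *Nipbl*+/- brains, 1791 to 2444 (median 2091) in *Wapl* Δ/+ brains and 1783 to 2449 (median 2032) in double heterozygotes. Its log2 fold changes were 0.12 (edgeR adjusted P = 0.52), 0.15 (edgeR adjusted P = 0.274) and 0.15 (edgeR adjusted P = 0.313). *Top2a* had 2456, 2559, 2264, 2193 and 2424 in WT brains, 2854, 1935 and 2850 in *Nipbl*+/- brains, 2110 to 3009 (median 2595) in *Wapl* Δ/+ brains and 2153 to 2871 (median 2490) in double heterozygotes. In both genes the first and last *Nipbl*+/- brains lay above the WT range and the second below it. The *Top2a* fold changes were 0.09, 0.09 and 0.09.

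The genes that end mitosis had the highest median of any role in *Wapl* Δ/+ brains, 0.27 over 4 genes, beside 0.26 in *Nipbl*+/- brains and 0.16 in double heterozygotes. *Cdc20* (chromosome 4, 118432901 to 118437343, overlapping *Elovl1*), the activator of the anaphase-promoting complex, had 429, 444, 438, 455 and 424 in WT brains, 624, 441 and 533 in *Nipbl*+/- brains, 410 to 749 (median 522) in *Wapl* Δ/+ brains and 423 to 585 (median 504) in double heterozygotes. Its fold changes were 0.28 (SE 0.0818, edgeR adjusted P = 0.046), 0.32 (SE 0.112, edgeR adjusted P = 0.17) and 0.21 (SE 0.0697, edgeR adjusted P = 0.162), so that the largest estimate, in *Wapl* Δ/+ brains, had the widest SE and was not called. *Espl1* (chromosome 15, 102296254 to 102324357), which encodes separase, the protease that cuts cohesin, had 473, 458, 504, 469 and 494 in WT brains, 630, 489 and 622 in *Nipbl*+/- brains, 497 to 665 (median 549) in *Wapl* Δ/+ brains and 376 to 654 (median 536) in double heterozygotes. The *Espl1* fold changes were 0.27 (SE 0.0732, edgeR adjusted P = 0.03), 0.25 (edgeR adjusted P = 0.104) and 0.13 (edgeR adjusted P = 0.594). Without *Nipbl*+/- replicate 1 neither call in *Nipbl*+/- brains was kept, and that of *Espl1* was lost without replicate 3 as well. Both were lost with all 4 groups in one fit and within the low *mt-Nd3* libraries. That of *Cdc20* was also lost with the replicate number as a block and with a term for the *mt-Nd3* set. *Ube2c*, the ubiquitin-conjugating enzyme of the same complex, gave 0.26 (edgeR adjusted P = 0.272), 0.30 (edgeR adjusted P = 0.243) and 0.19 (edgeR adjusted P = 0.326). *Pttg1*, which encodes securin, the inhibitor of separase, lay at -0.11, 0.11 and -0.14 and was not called.

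Other genes of the pathway were called in small numbers, to be read against the 11.2%, 2.22% and 3.28% of all genes called in *Nipbl*+/-, *Wapl* Δ/+ and double heterozygous brains (4.25%, 0.769% and 0.812% higher). Of 46 further S phase genes, 3 were called in *Nipbl*+/- brains, all higher (*Cdca7* 0.30, *Pold1* 0.18 and *Rfc3* 0.17), with a median log2 fold change of 0.06, and none by edgeR in *Wapl* Δ/+ brains or double heterozygotes (medians 0.08 and 0.06). An unadjusted P below 0.05 was reached by 10 and 11 of them there, against 15.6% and 13.5% of all genes. Of the 14542 genes that averaged 100 or more normalized counts, 3496 and 2933 reached it. Of 62 further G2/M genes tested (63 were listed), 5 were higher and 2 lower in *Nipbl*+/- brains (median 0.12), with *Cdca3* 0.29, *Hmgb2* 0.29, *Cks1b* 0.25 and *Ncapg2* -0.23 as those furthest from 0. In *Wapl* Δ/+ brains 2 were higher (*Cks1b* 0.25 and *Tacc3* 0.24, median 0.14) and in double heterozygotes 3 were higher (*Hmgb2* 0.25, *Cks1b* 0.24 and *Lbr* 0.18, median 0.10). *Cks1b*, which encodes a small subunit bound by *Cdk1*, was thus called in each comparison against WT. Of 26 inhibitors, pocket proteins and other regulators, 4 were higher in *Nipbl*+/- brains (*Btg2* 0.24, *Cdk4* 0.20, *Cdkn1b* 0.15 and *Trp53* 0.15), 3 in *Wapl* Δ/+ brains (*E2f7* 0.26, *Ccnd3* 0.20 and *Btg1* 0.16) and 2 in double heterozygotes (*Btg2* 0.29 and *Cdkn1b* 0.21). *Cdkn1b* encodes the cyclin-dependent kinase inhibitor p27, and *Btg2* an antiproliferative protein of neurogenic divisions.

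The mean over markers of neural progenitors moved with the cell cycle genes from brain to brain, although single markers differed in direction. All 14 were in the table and passed the filter, and none was at 0 in any group. Their mean log2 ratios to WT were 0.35, -0.02 and 0.25 in the 3 *Nipbl*+/- brains, whose G2/M means were 0.32, -0.12 and 0.26. The 8 brains with the highest progenitor means, from 0.25 to 0.44, were also the 8 with the highest G2/M means, from 0.19 to 0.39. Summed normalized counts of the 14 markers ran from 32670 to 33700 in WT, from 30910 to 36410 in *Nipbl*+/-, from 33460 to 37970 in *Wapl* Δ/+ and from 31060 to 35740 in double heterozygous brains. In *Nipbl*+/- brains 6 of the 14 were called higher and 2, *Hopx* and *Fabp7*, lower, against 4.25% and 6.96% of all genes (*Neurog1* 1.23, at a low WT mean of 7.81 counts, *Neurog2* 0.67, *Hopx* -0.67 and *Insm1* 0.38 being furthest from 0, and *Fabp7* -0.26 being the other one lower), none of 14 in *Wapl* Δ/+ brains by edgeR (8 at an unadjusted P below 0.05, against 15.6% of all genes), and 2 higher and 1 lower in double heterozygotes (0.812% and 2.46% of all genes). A second list, of 5 cerebellar granule progenitor markers, did not follow the G2/M means in every brain. Its means were 0.29, -0.05 and 0.02 in *Nipbl*+/- brains. They were -0.11, -0.21, 0.07, 0.08, 0.31, 0.12 and 0.25 in *Wapl* Δ/+ brains (replicates 1 to 7). In double heterozygotes they were 0.19, 0.22, -0.05, 0.31, -0.16 and 0.31 (replicates 1 to 6). The part of progenitor abundance in the cell cycle values was not tested.

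**Figure D5:**
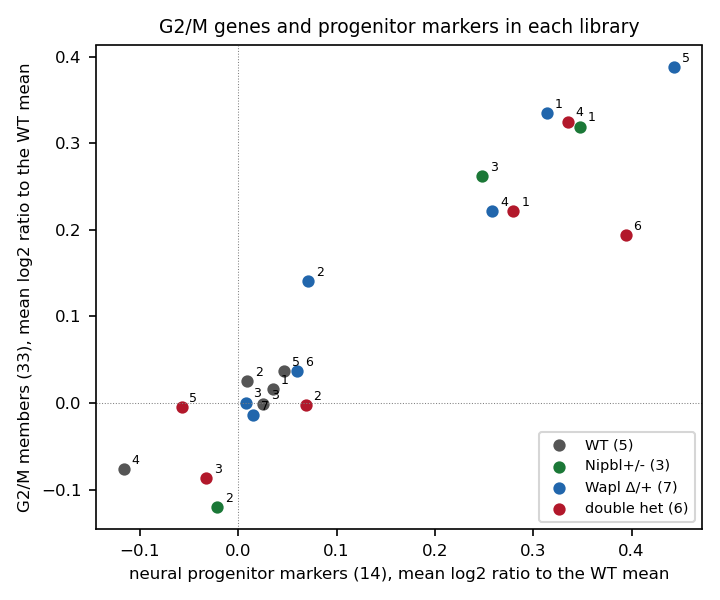
Mean log2 ratio to the WT mean of the 33 G2/M genes (y axis) against that of the 14 neural progenitor markers (x axis) in the 21 libraries, coloured by genotype and labelled by replicate number. The 8 brains at the upper right, all of them mutant, have progenitor means of 0.25 to 0.44 and G2/M means of 0.19 to 0.39.

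Markers of some other cells differed between genotypes as well. Means of the 5 oligodendrocyte progenitor markers were below 0 in all 3 *Nipbl*+/- brains (-0.36, -0.09 and -0.44) and all 6 double heterozygotes (-0.39 to -0.16). Their summed counts ran from 6276 to 6910 in WT, from 4801 to 5904 in *Nipbl*+/-, from 5601 to 7459 in *Wapl* Δ/+ and from 4866 to 5878 in double heterozygous brains, and none was at 0 in any group. Of those 5, 3, 0 and 4 were called lower in *Nipbl*+/-, *Wapl* Δ/+ and double heterozygous brains (6.96%, 1.45% and 2.46% of all genes). The 12 neuronal markers had median log2 fold changes of -0.08, -0.02 and -0.0032 in that order. Their library means ran from -0.03 to 0.05 in WT, -0.10 to -0.01 in *Nipbl*+/-, -0.08 to 0.03 in *Wapl* Δ/+ and -0.12 to -0.02 in double heterozygous brains. Of the 12, 2 (*Syt1* and *Snap25*), 0 and 1 (*Syt1*) were called lower. Summed counts of 5 meningeal markers ran from 10640 to 15030 in WT, from 10600 to 18340 in *Nipbl*+/-, from 11460 to 22740 in *Wapl* Δ/+ and from 8169 to 23250 in double heterozygous brains. Of those 5, 2 were called higher in *Wapl* Δ/+ brains (0.769% of all genes) and none in the other mutant groups, where 2 and 0 had an unadjusted P below 0.05. Those of 5 microglial markers ran from 1848 to 2217 in WT, from 1528 to 1727 in *Nipbl*+/-, from 1845 to 2476 in *Wapl* Δ/+ and from 1634 to 1867 in double heterozygous brains. Of those 5, 3 were called lower in *Nipbl*+/- brains (6.96% of all genes) and 1, *Cx3cr1*, in double heterozygotes (2.46% of all genes). *Prl* of the pituitary list was at 0 in the *Wapl* Δ/+ group. The part of any of these cells in the cell cycle values was not tested.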

How the data were processed

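Poly(A) RNA from whole brains of female E17.5 embryos was sequenced by the authors as 101-base paired-end reads on an Illumina HiSeq2500, 1 library per embryo. Per the labels and the study's methods, the authors trimmed reads with cutadapt 2.4, mapped them to mm10 (GRCm38.p6) with STAR 2.5.3a and counted them with featureCounts of Subread 1.6.4. The authors deposited raw counts per gene, with no normalization. Their annotation, strand setting and rule for multiply mapped reads were not given in the sources used here. Groups came from the sample labels, and a library that the authors excluded was not analysed here. Libraries held 25682566 to 35818767 counts, with a median of 31830396.

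The quasi-likelihood test of edgeR 4.0.16 (R 4.3.3) was applied after TMM scaling. It covered the 30552 genes whose normalized counts summed to 10 or more across the 21 libraries, and a gene was called where its P, adjusted by Benjamini-Hochberg across all 30552, was below 0.10. A comparison of 2 groups used the libraries of those groups alone, and the interaction used all 4 groups. P values set the difference between groups against the spread between embryos, taken as independent. The paper reports that embryo size varied between litters. Litter and cross are not given in the labels used here, and neither entered a fit. Library means were taken over log2 ratios of normalized counts plus 0.5. SE is the standard error of the log2 fold change, derived from the F statistic. Spans of genes came from a RefSeq table for GRCm38.p6, which is the authors' build. The test was checked on simulated counts with 200 changed genes.

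The 55 genes, the other gene lists and the tests were chosen with earlier results of these data known. Genes were named by rule: those called in each comparison, or the 10 furthest from 0, and genes named throughout (*Mki67*, *Top2a*, *Ccnb1*, *Cdk1*, *Aurka*, *Plk1*, *Smc2*, *Cdc20*, *Ccnd1*, *Ccnd2*, *Ccne1*, *Mcm2*, *Mcm6*, *Pcna*, *Cdc6*, *Rrm2* and *E2f1*). Of the other lists, up to 4 called genes were named for each. Other genes are named as the ends of ranges or as exceptions, chosen after their values were seen. Alternatives were DESeq2 1.42.0, its size factors in edgeR, no filter, edgeR's filterByExpr, a threshold of 0.05, the replicate number as a block, a term for the *mt-Nd3* set, each set alone, all 4 groups in one fit and leaving out each library. Leaving out the libraries with over 500 summed pituitary counts was added after seeing the data. For single genes, losses of a call are given for leaving out 1 library, and for the other alternatives only where these are named. No sequence of promoters or proteins was used here.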

Additional observations from a re-analysis of the deposited data

Results flagged for a closer look

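Within groups of 4 to 10 brains, 5 of the 78 sets of values examined held a brain far from the others by Dixon's criterion, which chance alone meets in about 1 of 20 groups. In WT brains, *Ccnd1* of replicate 3 stood at 1650 normalized counts, beside 1560 to 1590 in the other 4, and *Mcm7* of the same brain at 2160, beside 2280 to 2300. WT replicate 5 had 2110 counts of *Gins2*, beside 2060 to 2080, and 3670 of *Ncapd2*, beside 3530 to 3570. In double heterozygotes, *Bub1b* of replicate 4 stood at 872, beside 575 to 684 in the other 5. Without WT replicate 3 the call of *Ccnd1* in double heterozygotes was lost, and with it those of *Mcm7* and *Cdk1*. The 3 *Nipbl*+/- brains were too few to examine.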

How the results depend on the processing

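No call reversed its direction, and the medians of the S phase and G2/M genes stayed above 0 in each comparison against WT and below 0 in the interaction under every alternative run. In double heterozygotes against *Nipbl*+/- or *Wapl* Δ/+ brains, the medians lay on either side of 0 depending on the alternative, from -0.17 to 0.05 and from -0.11 to 0.03. Counts of called genes moved more. In *Nipbl*+/- against WT the 11 became 20 without a filter, 7 with the *mt-Nd3* term, 4 (*Ccnd1*, *Cdk1*, *Birc5* and *Plk1*) with all 4 groups in one fit and 5 within the low *mt-Nd3* libraries. In *Wapl* Δ/+ against WT the 3 became 10 with DESeq2, 9 without a filter, 1 at a threshold of 0.05, and 0 without the libraries with pituitary RNA, with all 4 groups in one fit and within the low or the high *mt-Nd3* libraries. In double heterozygotes against WT the 3 became 6 with DESeq2, 1 at 0.05, and 0 without the libraries with pituitary RNA, with all 4 groups and within either *mt-Nd3* set. Against *Wapl* Δ/+ brains the 1 became 2 with all 4 groups and 0 within either set. Leaving out 1 library gave 3 to 41 called genes in *Nipbl*+/- against WT, 0 to 8 in *Wapl* Δ/+ against WT, 0 to 12 in double heterozygotes against WT, 0 in double heterozygotes against *Nipbl*+/-, 1 to 2 against *Wapl* Δ/+ and 0 to 1 in the interaction. The high *mt-Nd3* libraries hold no *Nipbl*+/- brain and gave no fit for its comparisons. The causes of these changes were not tested.

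The labels number the replicates within each group and do not state that the numbers pair the brains. Deviations of same-numbered libraries of different groups correlated at a mean of 0.0195 over 25 pairs (7 above 0.1). For libraries of different number and group the mean was -0.0031 over 136 pairs (48 above 0.1). In all, 3 of 21 libraries correlated best with their own number. With the replicate number as a block, called genes numbered 7 in *Nipbl*+/-, 29 in *Wapl* Δ/+ and 0 in double heterozygotes against WT (11, 3 and 3 without the block). They numbered 0 and 1 in double heterozygotes against *Nipbl*+/- and *Wapl* Δ/+, and 0 in the interaction. The cause of the rise in *Wapl* Δ/+ brains was not tested. Simulated 1.2-fold changes were made in random genes averaging 100 or more counts. Against WT they were called in 44.8% in *Nipbl*+/-, 65.7% in *Wapl* Δ/+ and 71.6% in double heterozygous brains. In these groups, in that order, the median SD of log2 values was 0.222, 0.174 and 0.164 for the 55 genes. For the 14542 genes that averaged 100 or more it was 0.0779, 0.087 and 0.0961, so these are not rates for the 55. Smaller changes, such as the medians of the 55 genes, were not simulated.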

Other observations

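A few of the 55 genes stood outside the block that the others formed, and they were singled out after their values were seen. After subtraction of group means, the median correlation with the other 54 genes across the 21 libraries, given as a description, was -0.19 for *Pttg1*, 0.07 for *Ccne2* and 0.13 for *Ccne1*, and between 0.50 and 0.87 for the other 52. *Pttg1* counts were 196, 174, 205, 186 and 202 in WT brains, 191, 181 and 166 in *Nipbl*+/- brains, 179 to 229 (median 208) in *Wapl* Δ/+ brains and 147 to 203 (median 171) in double heterozygotes. Its lowest value of the 21 brains, 147, was in double-heterozygote replicate 4, where 51 of the 55 genes lay above the WT range. The log2 fold change of *Pttg1* in double heterozygotes against *Wapl* Δ/+ brains was -0.26 (edgeR adjusted P = 0.218). *Ccne2* counts were 385, 366, 303, 299 and 335 in WT brains, 379, 377 and 350 in *Nipbl*+/- brains, 313 to 404 (median 358) in *Wapl* Δ/+ brains and 359 to 424 (median 391) in double heterozygotes.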
